A study of Oryza sativa Japonica Group with 6 samples.

Results

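PR10 genes of rice were described across 6 leaf transcriptomes. The genes are Os12g0555500 (PBZ1), Os12g0555000 and Os12g0555200, 3 of the 37863 genes in the deposited table, and their identifiers place them in 1 cluster on chromosome 12. They were picked by identifier with their values in these libraries already known, so their levels and their differences between genotypes are given as a description, without a test. All 3 passed the low-count filter that left 23769 genes for testing.

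PR10 proteins are small, mostly cytosolic proteins of the fold of the birch pollen allergen Bet v 1, and they are named pathogenesis-related because infection raises many of them. PBZ1 was found in rice as a transcript induced by probenazole, a compound that protects the crop against blast disease without killing the fungus itself. It is widely used as a marker of the rice defence response, and the protein is annotated as an RNase. Os12g0555000 is annotated as the root-specific PR protein of drought and salt responses. Os12g0555200 is annotated by similarity to PBZ1.

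The libraries were made from polyA RNA of leaves of 14-day-old Japonica rice seedlings grown on MS medium without a stated infection or elicitor. There were 3 wild-type (WT) libraries and 3 from OsWRKY65-2, labelled as overexpression of OsWRKY65, a transcription factor of the WRKY family. No source used here states the promoter of the transgene, the cultivar or whether plants were pooled for a library, and the line carries a single name, so that effects of the gene and of that line cannot be told apart. Nothing in the labels says that replicates came from separate plants, and any spread between them may be technical. The table names its OsWRKY65-2 columns, while the other 3 carry a prefix with no stated meaning and were read as WT by elimination, so each direction given depends on that reading. The WT replicates are numbered as in these column names, and whether those numbers are the labels' replicate numbers is not stated.

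Each library held between 20585288 and 29720852 counts. No annotation entry names WRKY65, and Os12g0116800, annotated as a WRKY transcription factor, was taken as OsWRKY65 from its older locus name, which is an assignment and not a label. It was above WT in all 3 libraries of the line and was highest in OsWRKY65-2 replicate 3. That replicate stood apart: across tested genes its log2 values correlated with those of the other libraries at r = 0.674 to 0.762, against 0.909 to 0.957 among the other libraries (genes are not independent replicates). It had 0 counts for 2444 genes whose median in the remaining libraries was above 50, and any other library had 28 to 198 such genes. Fold changes of the PR10 genes and list medians are therefore given with and without it, and other results include it unless stated. The part of that replicate in the PR10 levels beyond this was not tested. As a check of the tissue, the Rubisco small subunit genes Os12g0274700 and Os12g0292400 and the antenna protein gene Os09g0346500 were present in every library, at a summed 5832 to 10865 CPM over the WT libraries and 12819 to 15008 CPM over those of the line (CPM is counts per 1000000, with TMM scaling).

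PBZ1 was abundant in 3 libraries and close to absent in the other 3, and the split did not follow genotype. In WT it was at 53.6, 76.9 and 0.812 CPM in replicates 1 to 3. In OsWRKY65-2 it was at 0.629, 1.85 and 445.8 CPM. WT replicates 1 and 2 and OsWRKY65-2 replicate 3 were thus high, and WT replicate 3 lay with OsWRKY65-2 replicates 1 and 2. The low values rest on 20, 12 and 52 counts, and the high ones on 1339, 2518 and 8335 counts.

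The root-specific PR10 gene Os12g0555000 was high in the same libraries. It was at 29.8, 74.9 and 0 CPM in WT replicates 1 to 3, and at 1.73, 7.78 and 436.5 CPM in OsWRKY65-2 replicates 1 to 3. In the low libraries of the line it had 33 and 218 counts, more than the 12 and 52 of PBZ1, while WT replicate 3 had 0 counts against 20 of PBZ1. A count of 0 there allows up to 3 counts, or 0.122 CPM, on counting error alone.

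Os12g0555200 was detected in the 3 high libraries only. It was at 5.60, 64.2 and 0 CPM in WT and at 0, 0 and 178.8 CPM in OsWRKY65-2. The floor of 3 counts stood at 0.122 CPM in WT replicate 3 and at 0.157 and 0.107 CPM in OsWRKY65-2 replicates 1 and 2. Each library held only 63 to 247 genes with a count of 1, and whether small counts were set to 0 before deposit was not tested.

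**Figure D1:**
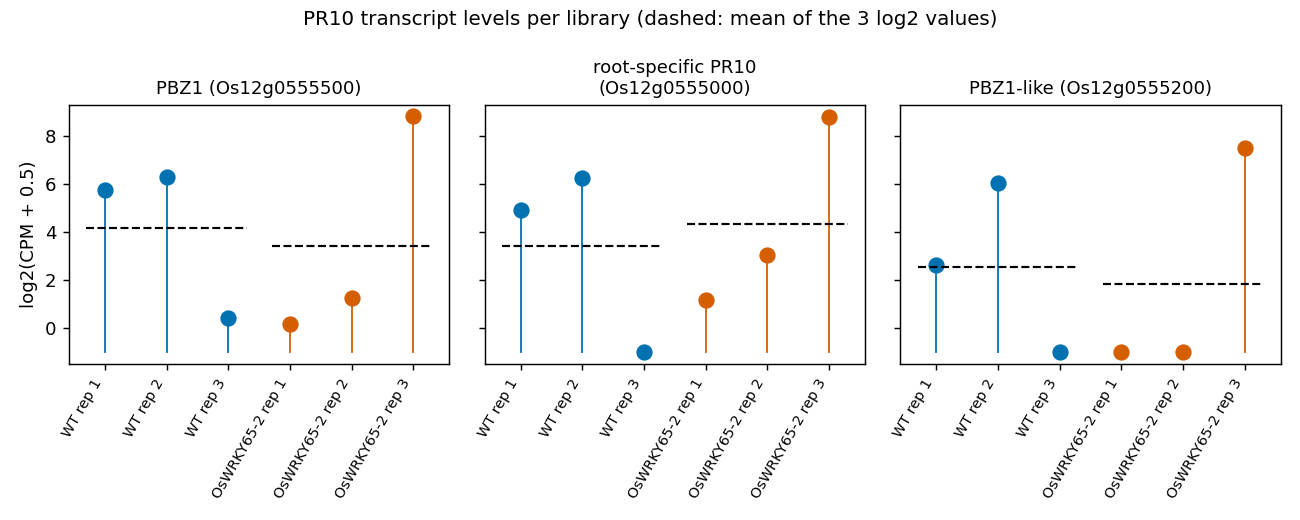
Levels of the 3 PR10 genes in each library as log2(CPM + 0.5), WT in blue and OsWRKY65-2 in orange, with the mean of the 3 log2 values as a dashed line; a value of -1 stands for a count of 0. In each panel WT replicates 1 and 2 and OsWRKY65-2 replicate 3 lie above WT replicate 3 and OsWRKY65-2 replicates 1 and 2, so the genotypes overlap.

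Group means hide this split. The mean of PBZ1 was 43.8 ± 39.0 CPM over WT against 149.4 ± 256.6 CPM over the line (SD, n = 3 each). Os12g0555000 averaged 34.9 ± 37.7 and 148.7 ± 249.3 CPM, and Os12g0555200 averaged 23.3 ± 35.6 and 59.6 ± 103.2 CPM. In every case the SD was as large as the mean or nearly so. The WT and OsWRKY65-2 values overlapped for 3 of the 3 genes, as they did for most tested genes. Genotypes did not overlap for 17.7% of all tested genes.

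The spread within a genotype was far above that of most genes. In WT, PBZ1 differed 94.7-fold between its highest and lowest library. The range of its log2(CPM + 0.5) over the WT libraries was 5.88, wider than in 99.97% of tested genes, against a median range of 0.58 over all of them. The ranges of Os12g0555000 and Os12g0555200 in WT were 7.24 and 7.02. These WT ranges do not involve OsWRKY65-2 replicate 3. In OsWRKY65-2 the ranges were 8.63 for PBZ1, 7.61 for Os12g0555000 and 8.49 for Os12g0555200, against a median of 1.23.

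OsWRKY65-2 replicate 3 held the highest level of each gene. PBZ1 there was 5.79 times the highest WT library, Os12g0555000 was 5.82 times and Os12g0555200 was 2.78 times. By TPM, which corrects for transcript length, PBZ1 ranked 105th and Os12g0555000 ranked 98th of 20893 genes with a value in that library. Os12g0555200 ranked 322nd there. In OsWRKY65-2 replicate 1 PBZ1 ranked 21779th of 24809, and in replicate 2 it ranked 18196th of 25043. No such rank was made for WT, where counts alone were used.

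The order of PR10 levels over the libraries was not that of Os12g0116800, the gene taken as OsWRKY65. It was at 4.16, 0 and 0 CPM in WT replicates 1 to 3 and at 69.5, 42.3 and 1039.65 CPM in OsWRKY65-2 replicates 1 to 3. The library with the most of it had the most PR10, but OsWRKY65-2 replicates 1 and 2 had more of it than WT replicates 1 and 2 and less of each PR10 gene.

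The fitted fold change between genotypes turned direction with 1 library. Over 6 libraries, the edgeR fit gave log2 fold changes (OsWRKY65-2 over WT) of 1.77 for PBZ1, 2.09 for Os12g0555000 and 1.35 for Os12g0555200. Without OsWRKY65-2 replicate 3 they were -5.01, -2.84 and -8.24. The last depends on the fit's prior count, since the line's remaining libraries had 0 counts. In CPM, OsWRKY65-2 replicates 1 and 2 averaged 1.24 ± 0.867 for PBZ1 (SD, n = 2), so the WT mean was 35.2 times higher. For Os12g0555000 they averaged 4.75 ± 4.27 CPM, and the WT mean was 7.34 times higher. Os12g0555200 had 0 counts in both, and the WT mean was at least 176 times higher than a floor of 3 counts per library. WT replicate 3, at or below these levels for PBZ1 and Os12g0555000 and also at 0 for Os12g0555200, lay with the line in this comparison too.

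The averaging also mattered. A fit on log values, limma-voom on the same counts, gave -1.27 for PBZ1, 1.60 for Os12g0555000 and -3.15 for Os12g0555200. No direction between genotypes can therefore be read for PBZ1 or Os12g0555200 from 6 libraries. The value for Os12g0555000 was positive with edgeR and limma-voom but negative without OsWRKY65-2 replicate 3. It was also negative (-1.99) in an edgeR fit of 6 libraries with the replicate number as a block, so no direction can be read for it either.

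**Figure D2:**
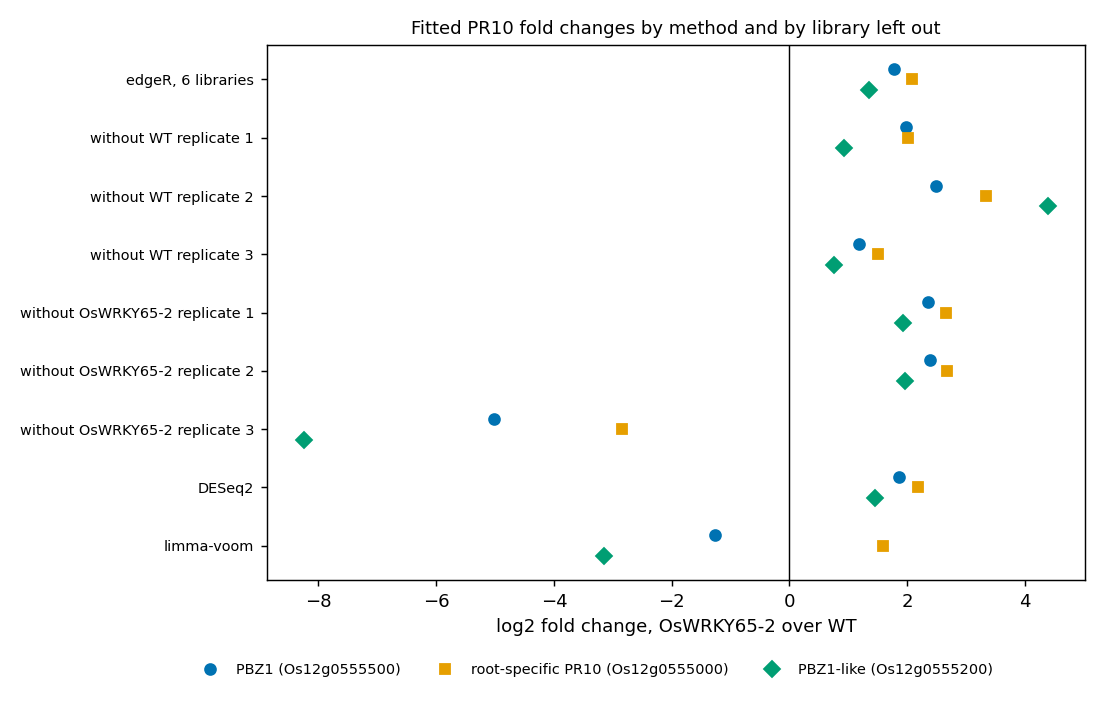
Fitted log2 fold changes of the 3 PR10 genes, OsWRKY65-2 over WT, on the horizontal axis, in rows for edgeR on 6 libraries, for edgeR after removal of any 1 of them and for other methods. Leaving out OsWRKY65-2 replicate 3 moved the values from between 1.35 and 2.09 to between -8.24 and -2.84, and leaving out any other library kept them above 0.

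The copies did not keep a fixed proportion to each other. The summed level of the 3 genes was 89.0, 216.1 and 0.812 CPM in WT replicates 1 to 3 and 2.36, 9.63 and 1061 CPM in OsWRKY65-2 replicates 1 to 3. To compare copies per length, counts were divided by a relative transcript length, which the count and TPM of OsWRKY65-2 replicate 3 put at 0.935 of PBZ1 for Os12g0555000 and 0.991 for Os12g0555200. In the 3 high libraries PBZ1 and Os12g0555000 together made up most of the sum per length. PBZ1 held 58.8% in WT replicate 1, 34.7% in WT replicate 2 and 40.8% in OsWRKY65-2 replicate 3. Os12g0555000 held 35.0%, 36.1% and 42.7% in the same libraries. Per length it stood at 0.594 of PBZ1 in WT replicate 1, and was level with it in the other pair, at 1.04 and 1.05 times.

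Os12g0555200 varied most among the high libraries. It held 6.20%, 29.2% and 16.5% of the sum per length in WT replicates 1 and 2 and OsWRKY65-2 replicate 3. As a share of the counts of the 3 genes it was at 6.30% (95% Wilson interval 5.36 to 7.38), 29.7% (28.7 to 30.8) and 16.8% (16.3 to 17.4) in these libraries. The intervals do not overlap, but they cover counting error only. They also treat reads as assigned to the right copy, while reads of near-identical copies in a cluster can be split between them.

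In the low libraries of the line, the root-specific gene was the main copy. Os12g0555000 held 74.6% and 81.8% of the sum per length in OsWRKY65-2 replicates 1 and 2, at 2.94 and 4.48 times the level of PBZ1. In WT replicate 3 all 20 counts of the 3 genes were PBZ1 (Wilson interval of that share 83.9 to 100%). WT replicate 3 thus differed from the other low libraries in the copy it held, on few counts.

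**Figure D3:**
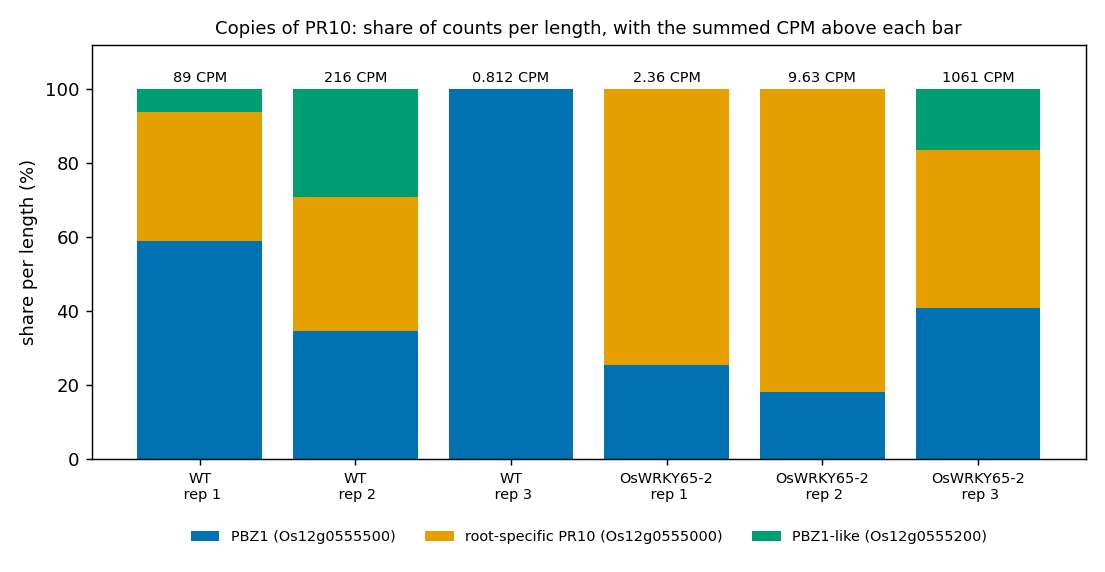
Share of each PR10 gene in the summed counts per length of the 3 genes (vertical axis, percent) in each library, with the summed CPM above the bar. Os12g0555200, in green, is present in WT replicates 1 and 2 and OsWRKY65-2 replicate 3, and Os12g0555000, in orange, makes up 74.6% and 81.8% in OsWRKY65-2 replicates 1 and 2.

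The text annotation names 6 further PR10 or Bet v I genes, 4 of which passed the filter. The other PR10 genes of the chromosome 12 cluster were low. Os12g0555300, annotated as similar to PR-10a, was at 0.961, 2.99 and 0 CPM in WT and at 0, 0 and 14.8 CPM in OsWRKY65-2, in the same libraries as Os12g0555200. Os12g0555100, annotated like Os12g0555200 as similar to PBZ1, did not pass the filter and had 3 counts in WT replicate 1, 33 in OsWRKY65-2 replicate 3 and 0 in the rest.

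The jasmonate-inducible PR10 gene on chromosome 3, JIOsPR10 (Os03g0300400), was high in the same 3 libraries and low in the other 3, over a much smaller range and in another order within each set. It was at 48.0, 35.5 and 7.88 CPM in WT and at 7.92, 15.8 and 44.3 CPM in OsWRKY65-2. OsWRKY65-2 replicate 3 reached 0.923 of the highest WT library here. Its WT range was 6.09-fold, against 94.7-fold for PBZ1. Its log2 fold change was -0.42 ± 0.83 (SE, adjusted p = 0.934, edgeR's quasi-likelihood test), and -1.35 without OsWRKY65-2 replicate 3 (adjusted p = 0.525, edgeR).

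Bet v I family genes outside these did not follow PBZ1. Os04g0465600 was at 162.7, 133.7 and 188.8 CPM in WT and at 98.0, 199.4 and 0 CPM in OsWRKY65-2, so that it was at 0 where PBZ1 was highest. It is among the 2444 genes with 0 counts in that replicate and a median above 50 elsewhere, so this 0 is not particular to it. Os08g0374000 was at 1.71 to 3.85 CPM in WT and at 1.11 to 6.82 CPM in OsWRKY65-2. Os02g0226801 was under 1 CPM in every library and did not pass the filter. Of the 4 tested relatives edgeR called 0 higher and 0 lower, where it called 0 of 23769 genes (0%), 0 of the 4 had an unadjusted p under 0.05, and DESeq2 called 0. DESeq2 called 3.08% of all genes with an adjusted p over 6 libraries and 2.76% without OsWRKY65-2 replicate 3.

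Genes next to the PR10 copies by identifier number, but of other families, had profiles of several kinds. Os12g0555400, annotated as similar to a raffinose synthase and numbered between the PR10 genes Os12g0555300 and PBZ1, was at 3.76, 5.93 and 5.85 CPM in WT and at 1.68, 2.68 and 0 CPM in OsWRKY65-2 (log2 fold change -1.77, adjusted p = 0.820, edgeR). Os12g0555600, a cellulose synthase-like gene numbered after PBZ1, was at 29.7 to 36.9 CPM in WT and at 36.3, 76.5 and 4.06 CPM in OsWRKY65-2. Os12g0554800, a polygalacturonase-like gene numbered before the cluster, was at 29.2 to 37.7 CPM in WT and at 18.8, 24.6 and 0 CPM in OsWRKY65-2. These 3 were lowest in OsWRKY65-2 replicate 3. Os12g0554800 and Os12g0555400 are among the 2444 genes with a median count above 50 elsewhere and 0 counts in that replicate. The lipase-like gene Os12g0554500, at 13.2, 15.5 and 10.2 CPM in WT and 15.4, 16.6 and 19.3 CPM in OsWRKY65-2, was highest there. So was Os12g0556200, a non-protein-coding transcript, at 27.7, 41.5 and 22.7 CPM in WT and 37.8, 40.5 and 60.9 CPM in OsWRKY65-2. Neither had the range of the PR10 genes.

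Likeness of profile was measured as the root mean square difference, over 6 libraries, between log2(CPM + 0.5) profiles centred on each gene's mean, among 12512 annotated genes with a mean of at least 5 CPM. All profiles share the libraries, and OsWRKY65-2 replicate 3 weighs heavily in them. The genes most like PBZ1 were Os12g0555200 (0.90), Os12g0555000 (1.07), the cytochrome P450 gene Os04g0180400, annotated as similar to CYP99A2 (1.10), and Os10g0542900, PR-3 chitinase 8 (1.19). The chitinase was at 17.8, 6.75 and 0.691 CPM in WT and at 0.839, 0.713 and 139.1 CPM in OsWRKY65-2.

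Os12g0555000 was most like PBZ1, followed by Os10g0416500, annotated as similar to a chitinase 1 (1.27), and by 2 synthases of the momilactone phytoalexins, Os04g0179700 (1.31) and Os04g0178300 (1.31). Os12g0555200 was closest to Os02g0570400 (0.71), which makes the diterpene precursor of the phytocassanes, then to PBZ1, to the ent-kaurene oxidase gene Os06g0569500 (0.92) and to the protein kinase gene Os06g0586150 (1.17). Os02g0570400 was at 1.88, 33.9 and 0 CPM in WT and at 0, 0 and 316.5 CPM in OsWRKY65-2, the same 3 libraries in which Os12g0555200 was found. The lead of WT replicate 2 over WT replicate 1 was also shared by Os12g0555200, Os02g0570400 and Os06g0569500 (2.56 and 41.8 CPM), while for PBZ1 these libraries were within 1.5-fold of each other.

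**Figure D4:**
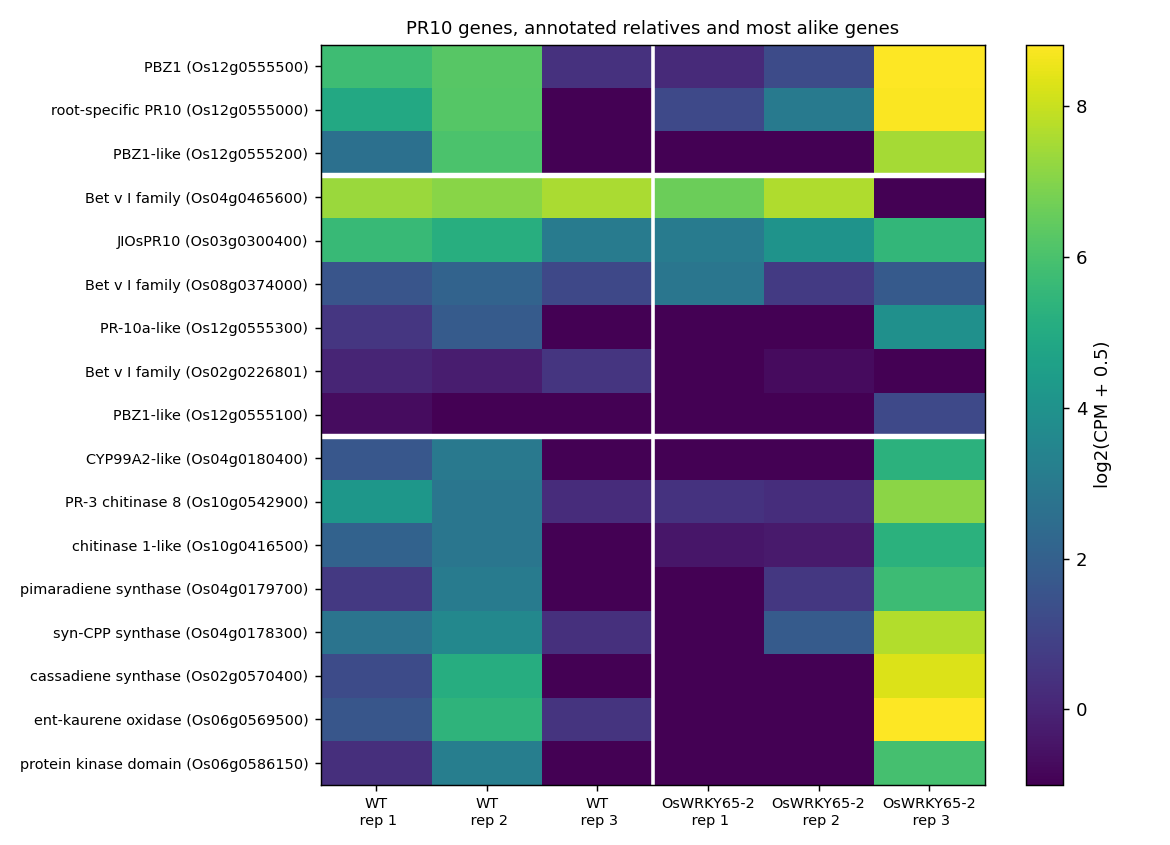
Levels as log2(CPM + 0.5), by colour, of the 3 PR10 genes (top block), the 6 annotated relatives (middle) and the most alike genes (bottom) in the 6 libraries (columns). The top and bottom blocks are brightest in OsWRKY65-2 replicate 3 and intermediate in WT replicates 1 and 2, and in the middle block Os04g0465600 is dark in OsWRKY65-2 replicate 3.

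Diterpenoid phytoalexins are antimicrobial compounds that rice makes on infection, as it does PR10 proteins. Of 10 genes for their synthesis, 5 passed the filter, and their median per library relative to the WT mean was -0.28, 2.19 and -2.02 in WT and -2.43, -1.48 and 4.81 in OsWRKY65-2 on the log2 scale. The high libraries were thus those of PBZ1, save that WT replicate 1 lay just under the WT mean. This match is partly built in, since the filter asks for counts in about 3 libraries. Os04g0180400 and Os02g0570400 had counts only in the 3 libraries high in PBZ1, and passed through these. Among members that did not pass, Os02g0571100 was at 0, 12.3 and 0 CPM in WT and at 0, 0 and 173.6 CPM in OsWRKY65-2. Os04g0178400 had counts in WT replicate 1 alone. The log2 fold changes of the 5 tested genes had a median of 2.51 (-0.01 over all tested genes). edgeR called 0 of the 5, as it called 0 of all 23769 tested genes. At an unadjusted p under 0.05 there were 0, against 1547 of all 23769. Without OsWRKY65-2 replicate 3 the median was -4.05, so the genes turned as PR10 did. The syn-copalyl diphosphate synthase Os04g0178300 was at 6.40, 11.4 and 0.772 CPM in WT and at 0, 3.03 and 205.8 CPM in OsWRKY65-2.

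Other pathogenesis-related families were mixed. Of 28 tested chitinases, which cut fungal cell wall chitin, 15 had a positive fold change (median 0.21), and their median per library ran from -0.45 to 0.51 in WT and from -0.70 to 0.73 in OsWRKY65-2. The most abundant were Os05g0247100, a class III chitinase annotated as a xylanase inhibitor, with means of 283 ± 82.7 CPM over WT against 214 ± 53.1 CPM over the line, and Os09g0494200 at 84.9 ± 13.5 and 53.5 ± 21.0 CPM (n = 3 each). Os04g0493400, PR-3 chitinase 4, was at 43.6, 47.7 and 32.9 CPM in WT and at 10.2, 15.3 and 23.6 CPM in OsWRKY65-2, below WT in 3 of 3. edgeR did not call it (adjusted p = 0.763), but DESeq2 called it lower with and without OsWRKY65-2 replicate 3 (adjusted p = 0.0314 and 2.51e-05), so this chitinase parted from chitinase 8 and PBZ1.

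Of 20 tested thaumatin-like genes (PR-5 type) 9 were positive (median -0.21). Os12g0628600 was at 7.20, 14.6 and 1.10 CPM in WT and at 1.68, 2.92 and 232.6 CPM in OsWRKY65-2, high in the libraries where PBZ1 was high, and Os01g0839900 was at 75.1, 53.1 and 37.5 CPM and at 25.1, 52.5 and 1.93 CPM. DESeq2 called Os07g0417600 higher, from 0 counts in WT to 1.26 ± 0.864 CPM (adjusted p = 0.00171), and Os03g0243900 lower in the fit without OsWRKY65-2 replicate 3 alone (adjusted p = 0.00231). Of 8 tested PR-1 genes, secreted proteins that mark salicylate responses, 1 was positive (median -0.26), and 3 of them carry near-equal counts and may share reads. Relative to the WT mean, the PR-1 median was 0.11, 0.51 and -0.87 in WT and -0.78, 0.03 and 0.33 in OsWRKY65-2. It was also highest where PBZ1 was high, with OsWRKY65-2 replicate 2 close behind WT replicate 1. The most abundant, Os07g0645000, was at 93.8 ± 9.50 and 45.4 ± 39.4 CPM, and Os01g0382400 was at 14.0 ± 8.10 and 13.9 ± 9.90 CPM. Of 15 tested beta-1,3-glucanase and family 17 genes 9 were positive (median 0.15), with Os02g0771700 at 116 ± 15.4 and 78.1 ± 65.0 CPM and Os01g0860800 at 69.7 ± 6.53 and 93.0 ± 79.9 CPM. The per-library medians of glucanases and thaumatin-like genes were instead lowest in OsWRKY65-2 replicate 3, at -1.63 and -0.74.

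edgeR called 0 members of these 4 families. At an unadjusted p under 0.05 there were 1 chitinase, 2 thaumatin-like genes, 0 PR-1 genes and 1 glucanase, against 1547 of all 23769 tested genes. Of all tested genes 11762 were positive. Without OsWRKY65-2 replicate 3 the median fold change was -0.46 for chitinases and -0.10 for thaumatin-like genes. It was -0.54 for PR-1 genes and -0.04 for glucanases.

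Among regulators of rice defence, WRKY45 and NH1 were given for their role. WRKY45 (Os05g0322900), through which probenazole-type compounds act in rice, was at 29.4, 48.1 and 72.7 CPM in WT and at 73.4, 82.2 and 115.9 CPM in OsWRKY65-2 (log2 fold change 0.85 ± 0.38, adjusted p = 0.764, edgeR). It was above every WT library in the 3 libraries of the line, but OsWRKY65-2 replicate 1 (73.4 CPM) was near-level with WT replicate 3 (72.7 CPM). Genotypes did not overlap for 17.7% of all tested genes. WRKY45 was lowest in WT replicates 1 and 2, where PBZ1 was high. NH1 (Os01g0194300), the rice NPR1-type co-activator of salicylate responses, was at 9.99 to 13.3 CPM in WT and at 11.8, 8.53 and 31.1 CPM in OsWRKY65-2 (adjusted p = 0.856, edgeR). It was thus highest in OsWRKY65-2 replicate 3, as PBZ1 was, but WT replicates 1 and 2 lay below WT replicate 3.

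Of 20 tested genes of salicylate and elicitor signalling, 15 had a positive fold change (median 0.69), and edgeR called 0. At an unadjusted p under 0.05 there were 2. Of all 23769 tested genes, 11762 were positive and 1547 had an unadjusted p under 0.05. Without OsWRKY65-2 replicate 3 the median fold change of these signalling genes was -0.003. Their median relative to the WT mean was 1.35 in OsWRKY65-2 replicate 3 and between -0.15 and 0.15 in each of the other 5 libraries, so WT replicates 1 and 2 were not set apart as they were for PR10. Single genes of the list differed from its median. WRKY28 (Os06g0649000) was at 6.36, 32.0 and 6.17 CPM in WT and at 6.29, 1.36 and 70.2 CPM in OsWRKY65-2. The kinase MPK3 (Os03g0285800), which relays elicitor signals, was at 24.6, 89.2 and 31.5 CPM in WT and at 23.8, 21.8 and 94.0 CPM in OsWRKY65-2. Both were highest in OsWRKY65-2 replicate 3 and next in WT replicate 2, as the PR10 genes were. Unlike PR10, WRKY28 was near-level between WT replicates 1 and 3, and MPK3 was lower in WT replicate 1 than in WT replicate 3. FLS2 (Os04g0618700), the receptor for bacterial flagellin, was at 16.6, 5.93 and 1.87 CPM in WT and at 4.56, 7.49 and 33.1 CPM in OsWRKY65-2, highest in OsWRKY65-2 replicate 3 and next in WT replicate 1. The most abundant were WRKY53 (Os05g0343400), with means of 209 ± 94.9 CPM in WT and 409 ± 300.6 CPM over the line, and the respiratory burst oxidase Os01g0360200 at 269 ± 32.7 and 170 ± 58.4 CPM. WRKY76 (Os09g0417600), known as a repressor of rice defence genes including PR10-type ones, was at 4.03 to 7.04 CPM in WT and at 23.2, 23.0 and 27.1 CPM in OsWRKY65-2. DESeq2 called it higher (log2 fold change in edgeR 2.05, adjusted p = 1.73e-08 in DESeq2 but 0.757 in edgeR). It was near-level across the line while PBZ1 ranged from 0.629 to 445.8 CPM there.

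Because Os12g0555000 is linked to drought and salt, genes of the abscisic acid response were set beside it. Of 8 tested, 7 were positive (median 2.04), and edgeR called 0 over 6 libraries. At an unadjusted p under 0.05 there were 3, against 1547 of all 23769 tested genes, 11762 of which were positive. Without OsWRKY65-2 replicate 3 the median fold change was 0.84. The list's median per library, set against the WT mean, lay at -0.05, 0.12 and -0.23 for WT replicates 1 to 3 and at 1.22, 0.69 and 3.29 for those of the line. The median lay above every WT library in each library of the line, whereas Os12g0555000 was high in WT replicates 1 and 2. The late embryogenesis abundant gene Os05g0542500 (LEA3) had 0 counts in every WT library and 26.2, 4.64 and 451.4 CPM in OsWRKY65-2 (DESeq2 adjusted p = 3.21e-05). The dehydrin Os11g0454300 passed edgeR without OsWRKY65-2 replicate 3 (adjusted p = 0.0317), in a fit that called 0.0770% of 24677 genes. The most abundant of the list were NAC6 (Os01g0884300), at 136 ± 31.1 and 471 ± 519 CPM, and SNAC1 (Os03g0815100), at 150.1 ± 32.9 and 259 ± 250.8 CPM.

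Senescing tissue can also carry PR10 transcripts. Of 4 tested genes of leaf senescence and chlorophyll loss 3 were positive (median 1.01), and edgeR and DESeq2 called 0, with 0 at an unadjusted p under 0.05. Over all genes edgeR called 0 of 23769 and DESeq2 called 3.08%, and 1547 of 23769 had an unadjusted p under 0.05. Without OsWRKY65-2 replicate 3 the median fold change was -0.35. Relative to the WT mean, their median was 2.00 in OsWRKY65-2 replicate 3 and between -0.56 and 0.14 in the other libraries. SGR (Os09g0532000) was at 8.45, 18.9 and 6.01 CPM in WT and at 8.23, 4.57 and 63.9 CPM in OsWRKY65-2. It was highest in OsWRKY65-2 replicate 3 and next in WT replicate 2, as the PR10 genes were. NAP (Os03g0327800), at 3.28, 4.61 and 6.09 CPM in WT and 4.77, 1.82 and 28.3 CPM in OsWRKY65-2, was next in WT replicate 3 instead. Pheophorbide a oxygenase (Os03g0146400) was at 33.1 ± 13.3 and 58.4 ± 29.4 CPM, and the chlorophyll b reductase Os03g0654600 at 28.8 ± 1.80 and 21.0 ± 8.32 CPM.

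**Figure D5:**
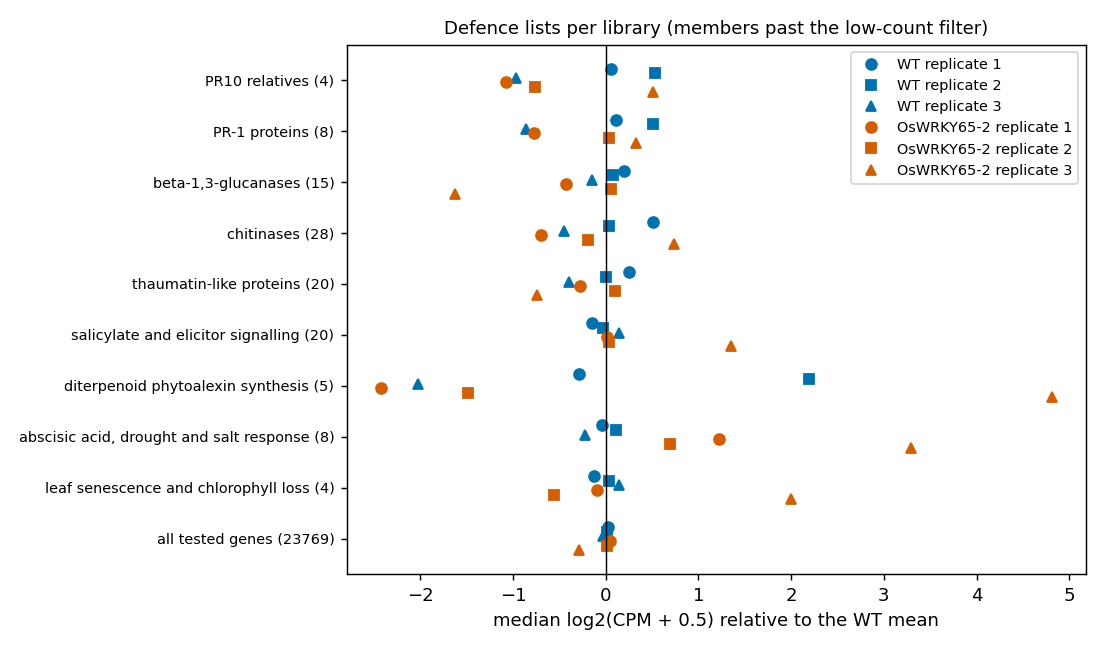
Median over each list of the log2(CPM + 0.5) relative to the WT mean, by library (WT in blue, OsWRKY65-2 in orange), with the number of members past the filter in brackets. Diterpenoid phytoalexin genes spread most, from -2.43 to 4.81, highest in OsWRKY65-2 replicate 3 and next in WT replicate 2, while that of signalling genes stayed between -0.15 and 0.15 outside OsWRKY65-2 replicate 3.

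Root tissue in the samples was looked at because of the annotation of Os12g0555000. Summed over 8 root markers, levels were 8.77 to 11.9 CPM in WT and 8.77 to 18.5 CPM in OsWRKY65-2, with 4 to 6 of the 8 at 0 counts in a library. The silicon efflux transporter Lsi2 and the nitrate uptake genes NRT2.1, NRT2.2 and NAR2.1 were at 0 counts in all 6 libraries. RCc3 had at most 28 counts, in OsWRKY65-2 replicate 2. The silicon influx transporter Lsi1 was instead present in every library. Lsi1 was at 5.84, 8.28 and 4.47 CPM in WT and at 11.3, 10.8 and 8.29 CPM in OsWRKY65-2. With the cation transporter gene Os06g0701700 and the ammonium transporter gene Os02g0620600, Lsi1 made up nearly all of the sum. By library the sum was 8.77, 10.6 and 11.9 CPM in WT replicates 1 to 3 and 15.5, 18.5 and 8.77 CPM in OsWRKY65-2 replicates 1 to 3. The summed leaf markers were lowest in WT replicates 1 and 2 and highest in OsWRKY65-2 replicate 3. Of these, Os12g0292400 was instead highest in OsWRKY65-2 replicate 1, at 2099 CPM against 1849.5 CPM in OsWRKY65-2 replicate 3. The part of tissue make-up in the PR10 levels was not tested. In whole leaves, more cells with PR10 transcripts and more transcript per cell cannot be told apart.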

How the data were processed

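Build IRGSP-1.0 was used with StringTie 2.1.3b, HISAT2 2.1.0, Trimmomatic and bcl2fastq 2.20.0, as the submitters' processing notes list them; no source used here gives the counting options or strand, so antisense reads cannot be told apart. The authors deposited whole-number read counts, taken here as estimated counts, and TPM values, scaled by the authors to transcript length and to a sum of 1000000 per library. WT columns could be matched to the group only, so counts alone were used for WT, and 9 columns of per-sample values were not used. A planned share of TPM by copy therefore became a share of counts per length, with length from the count and TPM of OsWRKY65-2 replicate 3.

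Counts were tested with edgeR 4.0.16 (R 4.3.3): TMM, filterByExpr with a minimum count of 10, robust quasi-likelihood test, genotype as the term, Benjamini-Hochberg adjusted p under 0.05 over all tested genes, prior count of 2. SE is the absolute log2 fold change over the square root of F. DESeq2 1.42.0 and limma-voom (limma 3.58.1) were run on genes past the same filter. The scripts were tested on simulated data.

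The genes, lists, rules and tests were chosen with earlier results of these data known. Lists were text patterns and remembered identifiers kept where the annotation held an expected word (9 were dropped). Once annotations had been seen, the words were widened for 5 identifiers, 1 was given an expected word, and accidental matches were removed. Named were the PR10 genes, their relatives, the 2 most abundant members of each list, WRKY45, NH1 and the 4 genes most like each PR10 gene. Other genes were named after their values were seen, namely cluster neighbours, calls by DESeq2 and single list members.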

Additional observations from a re-analysis of the deposited data

How the results depend on the processing

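For the PR10 genes, given as PBZ1, Os12g0555000 and Os12g0555200, log2 fold changes stayed positive and within 1 SD of replicates with RLE factors, no filter, a stricter filter and DESeq2. That SD, pooled within genotypes on the log2 scale, was 4.05, 3.91 and 4.26. It is wide enough to hold a change of sign, so it could not show stability. With limma-voom the fold changes were -1.27, 1.60 and -3.15, the first of them still within that SD. Leaving out 1 library gave -5.01 to 2.48, -2.84 to 3.34 and -8.24 to 4.39, the lowest without OsWRKY65-2 replicate 3 and the highest without WT replicate 2. Chosen after seeing the data, and without OsWRKY65-2 replicate 3, they were -5.13, -2.87 and -11.51 with DESeq2. The cause was not tested.

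Genes called higher and lower by edgeR, 0 and 0, became 2 and 0 with no filter, 419 and 303 with DESeq2, and 0 to 13 and 0 to 6 with 1 library left out. All of the latter calls came without OsWRKY65-2 replicate 3, where DESeq2 gave 266 and 414. In the lists, DESeq2 called 1 chitinase lower, 1 thaumatin-like, 1 signalling and 1 abscisic acid gene higher. Some tested members had no DESeq2 adjusted p over 6 libraries and could not be called, among them Os11g0454300, Os11g0454200, Os04g0178300 and Os12g0628600. Without OsWRKY65-2 replicate 3 DESeq2 called 1 chitinase and 1 thaumatin-like gene lower and 1 thaumatin-like, 1 signalling and 3 abscisic acid genes higher. The abscisic acid genes then called included Os11g0454300 and Os11g0454200. Leaving out 1 library gave 0 to 1 abscisic acid genes called higher by edgeR. Shares of the copies moved by less than 1 SD with plain counts in place of counts per length. With a library left out they depended on the library. The mean WT share of PBZ1, 64.5%, became 46.7% without WT replicate 3 and 79.4% without WT replicate 2. That of Os12g0555200, 11.8%, became 17.7% and 3.10%. Leaving out 1 of 3 values cannot move their mean by 1 SD, so that limit could not show stability here. Depth limits the copies most in WT replicate 3 and OsWRKY65-2 replicate 1, with 20 and 45 counts over the 3 genes. Differences of log2(TPM) between genotypes were planned but not run, since WT was read as counts only. The replicate block used the numbers in the column names, which for WT are not tied to the labels. It gave -4.04, -1.99 and -5.13 for the PR10 genes, and 0 genes called higher and 0 lower. Deviations from group means over 23769 genes correlated at r = 0.070, -0.072 and -0.012 between libraries of numbers 1, 2 and 3, and WT replicate 1 correlated best with OsWRKY65-2 replicate 2 (0.122), so the numbers were not taken as pairs. Chosen after seeing the data, the replicate block without OsWRKY65-2 replicate 3 gave -5.71, -3.62 and -8.80, with 7 genes called higher and 1 lower.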
